A study of Homo sapiens with 4 samples.

Results

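The genes described here encode chaperones of the cytosol and the mitochondrion, their cochaperones and the transcription factors that control them. They were chosen by name: 45 symbols of HSP70, HSP90, small heat shock, J-protein, chaperonin, cochaperone and heat shock factor genes, each found on 1 row of a table of 20665 genes. In the low-count filter 44 of the 45 passed, and BAG3 did not. The transcripts were measured by total RNA sequencing of 4 libraries from NALM6, a human cell line grown from a leukemia of B cell precursors. The 2 vehicle libraries came from cells given DMSO for 45 min, and the 2 AICAR libraries from cells kept in medium without glucose for 24 h and then given AICAR at 15 mM, also for 45 min. Inside cells AICAR is phosphorylated to an imitation of AMP, which activates the kinase AMPK. A period without glucose is mentioned in the labels of the AICAR samples alone, so the effect of AICAR and that of lost glucose cannot be told apart here. Nothing in the labels says that the 2 libraries of a group came from separate cultures, so their spread may be technical.

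Chaperones bind unfolded protein. HSP70 proteins hold and release substrates in an ATP cycle that J-proteins start and nucleotide exchange factors end, and HSP90 takes over part of the substrates, among them many kinases, with the help of its own cochaperones. The cytosolic chaperonin TRiC encloses actin, tubulin and other proteins in a chamber of paired rings, and HSPD1 with its lid HSPE1 does the same in the mitochondrion. HSF1 is the factor that raises many of these genes when unfolded protein accumulates, and HSPA1A, HSPA1B, DNAJB1 and HSPA6 are textbook examples of its targets. In most cells HSPA8 and HSP90AB1 are expressed without stress, while HSPA1A, HSPA1B and HSP90AA1 are the stress-inducible relatives.

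Library totals lay between 32318376 and 36769116 expected counts, of which the 45 genes took 1.292% to 1.36%. Markers of B cell precursors were present in every library, with VPREB1 at 679.47 to 711.35 FPKM and PAX5 at 39.4 to 42.92 FPKM, while the monocyte marker CD14 reached at most 0.1 FPKM and the globin gene HBB at most 0.24 FPKM. LYZ, a myeloid marker, lay between 1.37 and 1.95 FPKM. In this bulk RNA a change in all cells and a change in some of them cannot be told apart, and all values are relative to the other RNAs of the library.

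Promoter sequence is shown for 6 of the genes, since heat shock factors recognise a simple pattern of inverted GAA units and the set spans genes that fell, rose or were not called. The sequences are from RefSeq on GRCh38.p14, which is not the build named by the submitters, and each is the 250 bases before an annotated start, 5′ to 3′ in the direction of the gene. Capitals mark every match to GAANNTTC or TTCNNGAA, each of which reads the same on both strands. Matches may overlap or adjoin, and then form longer runs of capitals. HSPA1A (chr6:31815293-31815542, plus strand), HSPA1B (chr6:31827488-31827737, plus strand) and DNAJB1 (chr19:14518398-14518647, minus strand) are shown because their transcripts fell most among the inducible genes, HSPA8 (chr11:123062137-123062386, minus strand) as the abundant HSP70 gene that fell, HSP90AB1 (chr6:44247693-44247942, plus strand) as the abundant gene that rose, and CHORDC1 (chr11:90223050-90223299, minus strand) as the gene with the most matches, which was not called.
HSPA1A: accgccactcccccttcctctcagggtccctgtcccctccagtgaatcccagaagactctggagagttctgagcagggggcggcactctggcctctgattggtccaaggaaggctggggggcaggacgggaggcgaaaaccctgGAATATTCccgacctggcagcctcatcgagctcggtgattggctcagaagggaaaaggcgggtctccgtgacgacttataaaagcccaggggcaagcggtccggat
HSPA1B: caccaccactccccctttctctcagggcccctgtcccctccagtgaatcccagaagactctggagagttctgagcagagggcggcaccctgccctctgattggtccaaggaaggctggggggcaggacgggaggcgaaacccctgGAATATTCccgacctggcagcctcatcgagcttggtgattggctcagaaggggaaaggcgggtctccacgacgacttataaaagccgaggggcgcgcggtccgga
DNAJB1: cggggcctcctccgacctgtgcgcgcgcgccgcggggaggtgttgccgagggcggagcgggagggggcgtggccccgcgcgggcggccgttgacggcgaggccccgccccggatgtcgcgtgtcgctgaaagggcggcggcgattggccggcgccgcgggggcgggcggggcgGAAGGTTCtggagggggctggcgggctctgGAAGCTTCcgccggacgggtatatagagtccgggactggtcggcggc
HSPA8: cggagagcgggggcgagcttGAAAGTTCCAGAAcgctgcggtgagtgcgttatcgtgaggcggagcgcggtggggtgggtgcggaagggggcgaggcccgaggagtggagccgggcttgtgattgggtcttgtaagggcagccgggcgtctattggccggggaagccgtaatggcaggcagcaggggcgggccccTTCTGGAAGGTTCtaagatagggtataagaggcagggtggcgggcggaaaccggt
HSP90AB1: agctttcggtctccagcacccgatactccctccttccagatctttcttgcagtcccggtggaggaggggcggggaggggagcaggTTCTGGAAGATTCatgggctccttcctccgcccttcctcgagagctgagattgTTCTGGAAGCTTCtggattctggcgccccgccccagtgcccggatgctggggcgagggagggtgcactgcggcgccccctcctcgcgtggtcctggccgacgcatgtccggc
CHORDC1: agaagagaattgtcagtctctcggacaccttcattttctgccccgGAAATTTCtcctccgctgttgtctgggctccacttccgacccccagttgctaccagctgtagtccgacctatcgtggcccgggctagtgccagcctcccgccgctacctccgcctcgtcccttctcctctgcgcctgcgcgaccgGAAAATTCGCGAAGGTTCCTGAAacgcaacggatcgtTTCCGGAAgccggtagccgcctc

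The HSPA1A and HSPA1B promoters were identical at 235 of 249 positions when set against each other with an offset of 1 base, and each held 1 match, whose 3′ end lay 98 and 97 bases before the start. HSPA8 and HSP90AB1 each held 4 matches, CHORDC1 6 and the DNAJB1 window 2. HSP90AB1 and DNAJB1 have 3 annotated starts each, and the one with the most matches is shown. The 250 bases before each of their other starts held 0 matches. A stricter pattern of 3 inverted units, GAANNTTCNNGAA or its reverse complement, occurred in the windows (250 bases before to 50 after a start) of 7 of the 39 genes with a RefSeq promoter, 17.949%, against 0.608% of 27305 genes in the whole RefSeq table. A match to the shorter pattern occurred in 18 of the 39, 46.154%, against 16.177% of all genes. The 7 genes with the 3-unit pattern went different ways. HSPD1, HSP90AA1 and HSP90AB1 were higher with AICAR, HSPA8 was lower, and DNAJA1, DNAJB6 and CHORDC1 were not called. The letters describe sequence alone and do not show binding.

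Of the 44 tested genes, 23 were higher with AICAR, 11 were lower and 10 were not called (quasi-likelihood test of edgeR, p adjusted over 13626 genes after Benjamini and Hochberg, threshold 0.05). Across all genes tested 39.1% were called, 19.4% higher and 19.7% lower, against 77.3% of the chaperone genes, 52.3% higher and 25% lower. The falls reached a log2 fold change of -1.68 and the rises at most 0.34, so the large differences were all falls. The median log2 fold change was 0.12 for the chaperone genes and 0.00 for all genes. In 42 of the 44 the CPM values of the groups (counts brought to a common library size with TMM factors) did not overlap, as in 69.2% of all genes tested.

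**Figure D1:**
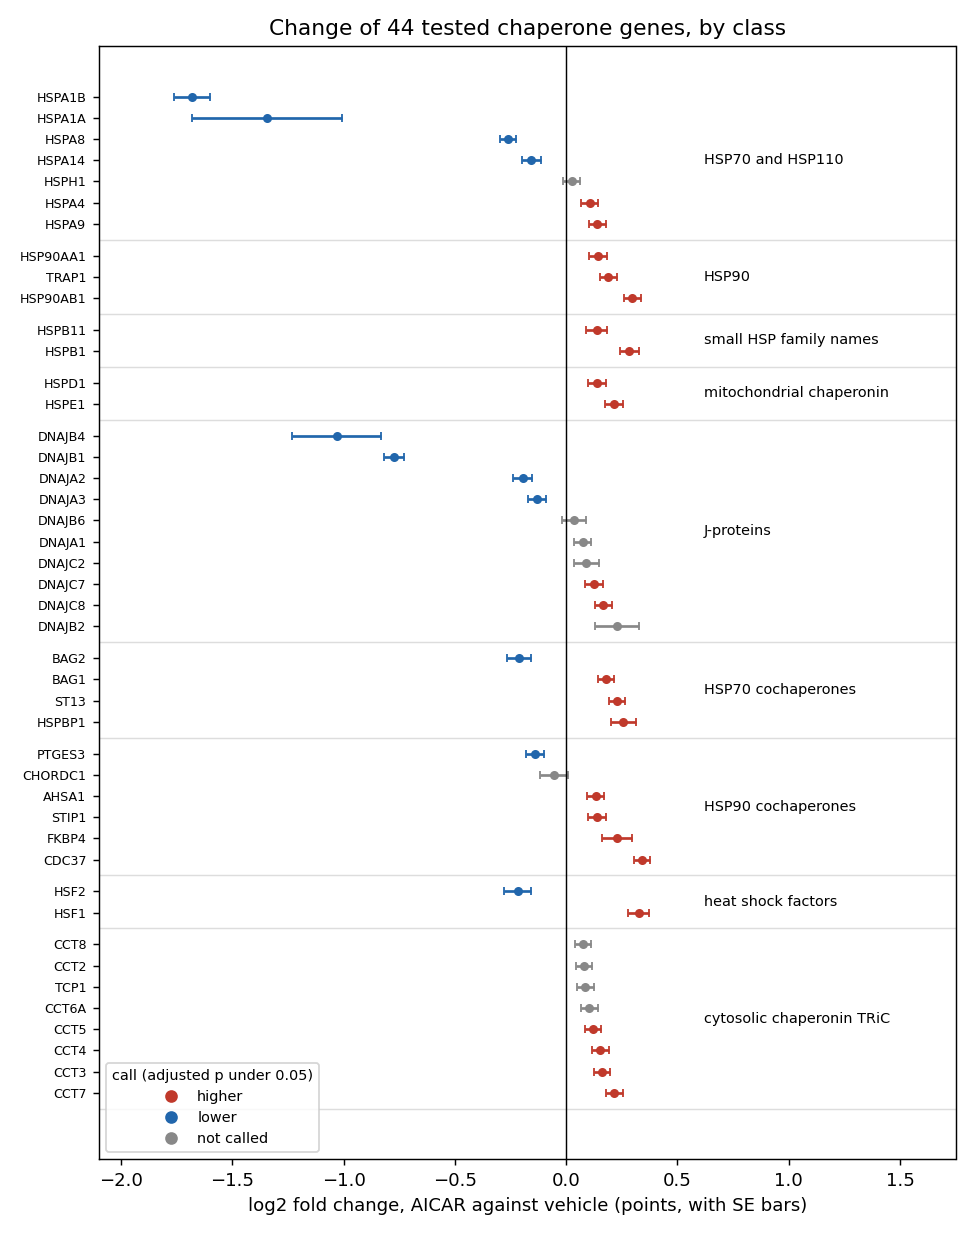
Log2 fold change between AICAR and vehicle for the 44 tested chaperone genes (points, with SE bars), in classes from top to bottom and coloured by call. HSPA1B, HSPA1A, DNAJB4 and DNAJB1 lie between -1.68 and -0.77, and the other 40 genes lie between -0.26 and 0.34.

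The stress-inducible HSP70 genes fell most. HSPA1B (ENSG00000204388) had 19.0 and 18.8 CPM in the vehicle libraries and 5.79 and 5.98 CPM in the AICAR libraries. Both AICAR values lay far below the vehicle values, which were nearly equal, and the log2 fold change was -1.68 ± 0.082 (SE, adjusted p = 7.30e-08). HSPA1A (ENSG00000204389) was assigned far fewer reads, 39 and 54 counts with vehicle and 15 and 18 with AICAR. Its groups did not overlap either, with a log2 fold change of -1.35 ± 0.34 (SE, adjusted p = 0.00795), but the call was lost without vehicle replicate 2 (log2 fold change -1.14, adjusted p = 0.0739).

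The counts of the HSPA1 pair cannot be separated with confidence. In GENCODE 29 69.305% of the 75-base windows of HSPA1A transcripts, 75 bases being the read length, also occur in HSPA1B. Summed as 1 gene, the pair had 711 and 745 counts with vehicle and 200 and 218 with AICAR, or 20.2 ± 0.083 against 6.39 ± 0.18 CPM (SD, n = 2). This sum does not depend on how reads were divided between the genes, and it fell 3.16-fold (log2 fold change -1.66, adjusted p = 6.51e-08). HSPA6, a strictly inducible HSP70 gene from a list of further chaperone genes, was close to absent, with 15 and 19 counts against 4 and 2 (log2 fold change -2.31, adjusted p = 0.010).

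HSPA8 (ENSG00000109971), the constitutive cytosolic HSP70, was the most abundant of the 45 transcripts at a mean of 939.9 FPKM. It had 2055 and 2057 CPM with vehicle and 1731 and 1701 CPM with AICAR. The drop from vehicle to AICAR was many times the gap within either group, and the log2 fold change was -0.26 ± 0.037 (SE, adjusted p = 0.000257). HSPA14, an HSP70 relative that works at the ribosome with DNAJC2, fell 1.11-fold (adjusted p = 0.0125), a call lost without AICAR replicate 2 (0.122) and with DESeq2 (0.0726). Its reads are uncertain, because 18.732% of its 75-base windows also occur in a second gene record with the same name.

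Of the other HSP70 class members 2 passed the test as higher, HSPA9 and HSPA4, and neither did so without AICAR replicate 1, without AICAR replicate 2 or with total counts alone. HSPA9, the mitochondrial HSP70 (mortalin), had 438 and 432 CPM with vehicle and 479 and 481 CPM with AICAR, a rise of 10.2% (adjusted p = 0.0108). HSPA4, a nucleotide exchange factor of the HSP110 kind, had 239 and 237 CPM with vehicle and 257 and 254 CPM with AICAR, a difference of 7.61% (adjusted p = 0.0398) that did not pass in 7 alternatives at the same threshold. Its FPKM went the other way, from a mean of 85.77 to 83.58, the only called gene of the 45 whose count and FPKM differences had opposite signs. HSPH1, the heat-inducible HSP110, had 91.1 and 90.8 CPM against 93.6 and 91.4 CPM, a log2 fold change of 0.02 (adjusted p = 0.666) that turned to -0.035 with total counts alone and to -0.016 when genes under 10 CPM were left out.

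**Figure D2:**
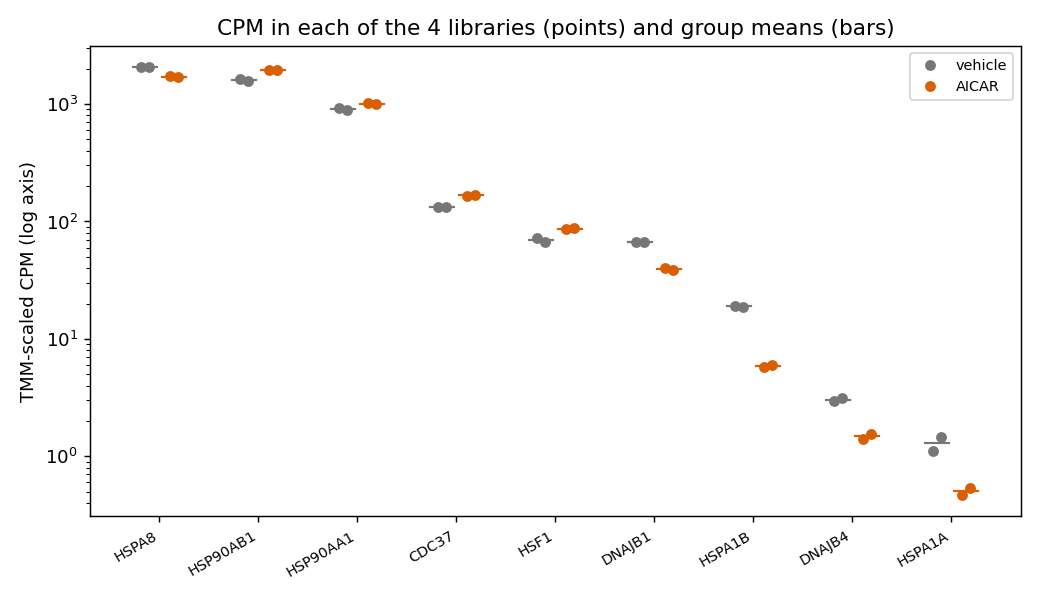
TMM-scaled CPM in the 4 libraries for 9 chaperone genes on a log axis, with vehicle in grey, AICAR in orange, points for libraries and bars for group means. HSPA8, DNAJB1, HSPA1B, DNAJB4 and HSPA1A are lower in both AICAR libraries, and HSP90AB1, HSP90AA1, CDC37 and HSF1 are higher.

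All 3 HSP90 genes rose, 100% against 19.4% of all genes tested. Their means were above 100 FPKM, where 68.4% of protein-coding genes were higher, with a median log2 fold change of 0.17. HSP90AB1 (ENSG00000096384), the constitutive cytosolic form, had 1621 and 1572 CPM with vehicle and 1958 and 1965 CPM with AICAR. The AICAR libraries lay close together and above both vehicle libraries, a log2 fold change of 0.30 ± 0.038 (SE, adjusted p = 0.000121). HSP90AA1, the inducible form, rose less, from 933 and 899 to 1027 and 996 CPM (log2 fold change 0.14, adjusted p = 0.0144). That call was lost with total counts alone (adjusted p = 0.161), with no low-count filter (0.0515) and without AICAR replicate 1 (0.164). TRAP1, the mitochondrial HSP90, rose from 185 and 183 to 207 and 213 CPM (adjusted p = 0.00210).

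HSPB1, a small heat shock protein that keeps unfolded protein soluble, had 154 and 150 CPM with vehicle and 179 and 192 CPM with AICAR, a rise of 21.7% (adjusted p = 0.00038). HSPB11 carries the family name but acts in the transport complex of cilia, and its rise of 9.96% was close to the threshold (adjusted p = 0.0398). The call for HSPB11 was lost under 8 of the alternatives at the threshold of 0.05 and would also be lost at 0.01, whereas that for HSPB1 was kept in each.

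In the mitochondrial chaperonin, HSPD1 had 830 and 841 CPM with vehicle and 941 and 899 CPM with AICAR (log2 fold change 0.14, adjusted p = 0.0160). The HSPD1 call was lost with total counts alone (adjusted p = 0.144) and with at least 10 CPM required (0.0521). It was also lost without AICAR replicate 1 (log2 fold change 0.11). HSPE1, its lid, had 176 and 184 CPM against 205 and 213 CPM (log2 fold change 0.21, adjusted p = 0.00154). The genes lie head to head on opposite strands of chromosome 2 and overlap in GENCODE 29. The sources used here do not say how strand was treated in the counting. HSPE1 also shares windows with the read-through gene HSPE1-MOB4, which fell from 18.4 and 15.9 CPM with vehicle to 12.1 and 11.1 CPM with AICAR (adjusted p = 0.000544).

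J-proteins, which bring substrates to HSP70 and stimulate its ATPase, did not share a direction: 2 rose, 4 fell and 4 were not called. That is 20% higher, close to the 19.4% of all genes, and 40% lower, against 19.7%. Leaving out each library in turn gave 1 to 3 higher and 3 to 4 lower. DNAJB1 (ENSG00000132002), the main inducible J-protein of the cytosol, had 67.0 and 67.0 CPM with vehicle and 39.8 and 38.7 CPM with AICAR. The vehicle libraries were nearly equal and the transcript fell by 41.4% with AICAR (log2 fold change -0.77 ± 0.045, SE, adjusted p = 2.88e-07). DNAJB1 overlaps TECR on the opposite strand, and TECR was higher with AICAR (log2 fold change 0.33).

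DNAJB4, a close relative of DNAJB1, fell from 2.95 and 3.13 CPM to 1.41 and 1.56 CPM, at 104 and 115 counts with vehicle and 45 and 52 with AICAR. Both AICAR counts were less than those of either vehicle library by a wide margin (log2 fold change -1.03 ± 0.20, SE, adjusted p = 0.00191). DNAJA2, a cytosolic J-protein, fell by 12.7% and DNAJA3, the mitochondrial one, fell by 8.63%. The call for DNAJA2 was kept in every alternative and that for DNAJA3 was lost with DESeq2 (adjusted p = 0.120), with no low-count filter (0.0545) and without either AICAR replicate (0.0689 and 0.115).

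DNAJA1, the most abundant J-protein at a mean of 131.97 FPKM, had 225 and 220 CPM with vehicle and 239 and 231 CPM with AICAR and was not called (adjusted p = 0.149). DNAJC7, which binds both HSP70 and HSP90, and DNAJC8, a protein associated with the spliceosome, were higher by 9.01% and 12.3%. Neither call held with total counts alone. The DNAJC7 call, unlike that of DNAJC8, was also lost with DESeq2 (adjusted p = 0.126), with no low-count filter (0.0865) and with at least 10 CPM required (0.0869). DNAJC7 overlaps CNP and NKIRAS2 on the opposite strand, and both were higher with AICAR (log2 fold change 0.21 and 0.20). DNAJB2, DNAJB6 and DNAJC2 had log2 fold changes of 0.23, 0.03 and 0.09 and were not called. DNAJB2 passed the test when vehicle replicate 1 (0.33) or AICAR replicate 1 (0.31) was left out.

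Among cochaperones of HSP70, ST13 (HIP), which stabilises the ADP-bound state, was the most abundant at a mean of 224.6 FPKM. It rose from 264 and 262 to 307 and 309 CPM, far more than the gap within either group (log2 fold change 0.23, adjusted p = 0.000569). HSPBP1 and BAG1, which promote nucleotide exchange, rose by 19.5% and 13.2%, and the BAG1 call was lost with total counts alone (adjusted p = 0.074). BAG2, an inhibitor of the ubiquitin ligase CHIP, fell by 13.7%, from 41.9 and 45.1 to 37.1 and 38.0 CPM. The BAG2 call was lost with no low-count filter (adjusted p = 0.0517). BAG3, an inducible member of the family, had 6 and 11 counts with vehicle and 6 and 5 with AICAR and was too low to test.

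Of the 6 HSP90 cochaperone genes 4 passed the test as higher and 1 as lower, 66.7% and 16.7% against 19.4% and 19.7% of all genes. Without AICAR replicate 2, and also with total counts alone, the number higher was 1, CDC37. CDC37, which delivers kinases to HSP90, had 132.2 and 131.8 CPM with vehicle and 166 and 168 CPM with AICAR, the largest rise of the 44 genes at 26.7% (log2 fold change 0.34 ± 0.037, SE, adjusted p = 3.46e-05). AHSA1, an activator of the HSP90 ATPase, had 170.5 and 175 CPM with vehicle and 189 and 190 CPM with AICAR (adjusted p = 0.0153). STIP1 (HOP), which links HSP70 to HSP90, and the immunophilin FKBP4 rose by 10.2% and 17.2% (adjusted p = 0.0157 and 0.0162). PTGES3 (p23), which closes the HSP90 cycle, fell by 9.17% (adjusted p = 0.0173), a call lost without AICAR replicate 1 (0.0723) or AICAR replicate 2 (0.109) and with no low-count filter (0.0728). CHORDC1, a cochaperone induced by heat, had a log2 fold change of -0.05 with overlapping groups (adjusted p = 0.522).

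The transcripts of the heat shock factors moved apart. HSF1 had 72.4 and 66.3 CPM with vehicle and 85.7 and 88.1 CPM with AICAR, a rise of 25.4% (adjusted p = 0.000293). HSF2, a relative that can form trimers with HSF1, had 28.6 and 26.7 CPM with vehicle and 23.2 and 24.3 CPM with AICAR, and fell by 14% (adjusted p = 0.0144). The HSF1 call was kept in every alternative and the HSF2 call was lost in 4 at the threshold of 0.05, namely DESeq2 (adjusted p = 0.102), no low-count filter (0.0681), without vehicle replicate 1 (0.0645) and without AICAR replicate 1 (0.0732), and would also be lost at 0.01. HSF1 activity rests largely on the state of the protein, which these data do not measure.

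All 8 subunits of TRiC had positive log2 fold changes, from 0.07 for CCT8 to 0.22 for CCT7, and 4 passed the test. Those 4 are 50%, against 19.4% of all genes tested and 68.4% of protein-coding genes with a mean of at least 100 FPKM. The median log2 fold change was 0.11 for TRiC and 0.17 for those abundant genes. CCT3, the most abundant, had 581 and 591 CPM with vehicle and 650 and 661 CPM with AICAR (log2 fold change 0.16, adjusted p = 0.00535). CCT7 had 546 and 540 CPM against 624 and 637 CPM (adjusted p = 0.000907). CCT4 and CCT5 also rose, while TCP1, CCT2, CCT6A and CCT8 did not pass (adjusted p from 0.0518 to 0.135). CCT6A did pass with RLE factors (adjusted p = 0.0463), upper-quartile factors (0.0376), limma-voom (0.0332) and DESeq2 (0.0335). It also passed with a replicate block (0.0282) and with protein-coding genes alone (0.0397). Each of these settings called 5 subunits higher. Subunit levels were alike, with mean FPKM from 217.5 for CCT6A to 402.3 for CCT3. With total counts alone the 8 values were still above 0 (0.01 to 0.16), but 1 subunit, CCT7, was called, and without AICAR replicate 2 the number called was also 1.

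**Figure D3:**
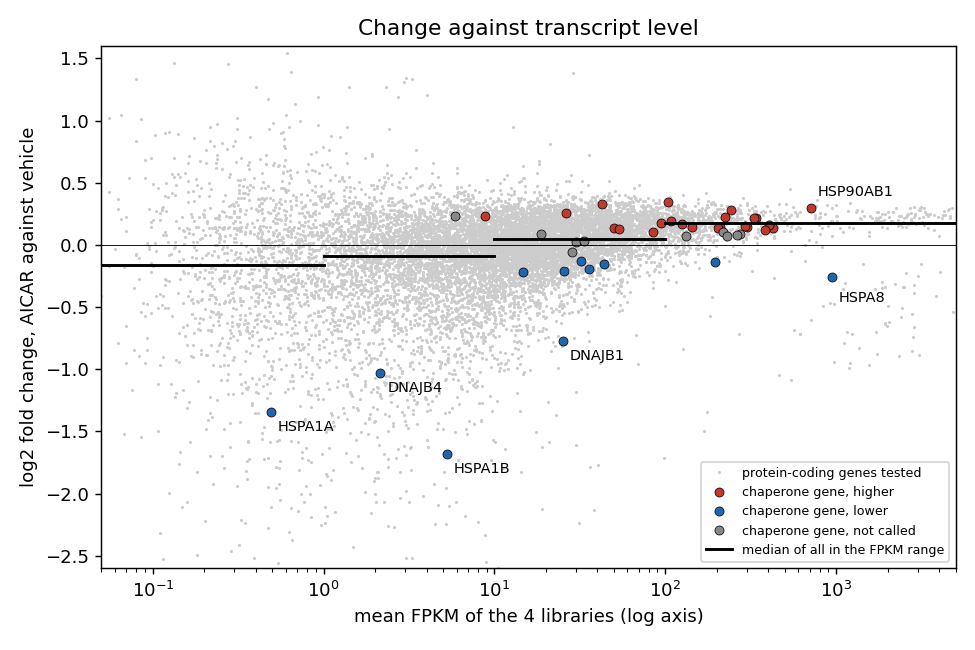
Log2 fold change between AICAR and vehicle against the mean FPKM of the 4 libraries (log axis) for tested protein-coding genes (grey) and the chaperone genes (coloured by call), with black bars at the median of all protein-coding genes in 4 FPKM ranges. The bars rise from -0.16 below 1 FPKM to 0.17 from 100 FPKM, and most chaperone genes above 100 FPKM lie near that bar, while HSPA8, HSPA1B, HSPA1A, DNAJB4 and DNAJB1 lie below theirs. Genes beyond the axis limits are not drawn.

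The direction of small changes went with transcript level over all genes. Of 829 protein-coding genes with a mean of at least 100 FPKM, a range chosen after the values were seen, 68.4% were called higher and 9.0% lower, with a median log2 fold change of 0.17. Among the 23 chaperone genes in that range 16 were higher, 69.6%, and 2 were lower, 8.7%, with a median of 0.14. The share that rose among abundant chaperone genes was thus close to that among all abundant genes. HSPA8 and PTGES3 were the 2 that fell. Between 10 and 100 FPKM, 6 of the 16 chaperone genes were higher and 6 lower, 37.5% each, against 31.7% and 18.4% of 5091 genes. Between 1 and 10 FPKM, 2 of the 4 were lower (HSPA1B and DNAJB4) and FKBP4 was higher, against 30.4% lower and 6.8% higher of 4170 genes.

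Small changes also went with transcript length, and the median fell as length rose. Protein-coding genes with a median GENCODE 29 transcript under 1000 bases had a median log2 fold change of 0.08, with 32.5% called higher and 15.0% lower. The 17 chaperone genes with such an annotated length had a median log2 fold change of 0.16, with 13 higher and 1, DNAJB1, lower. Of the 15 chaperone genes between 2000 and 4000 bases 5 were higher and 5 lower, 33.3% each against 16.4% and 26.5% of all genes of that length, at a median of 0.08 against -0.04 for all genes of that length. The part of length and level in these results was not tested.

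**Figure D4:**
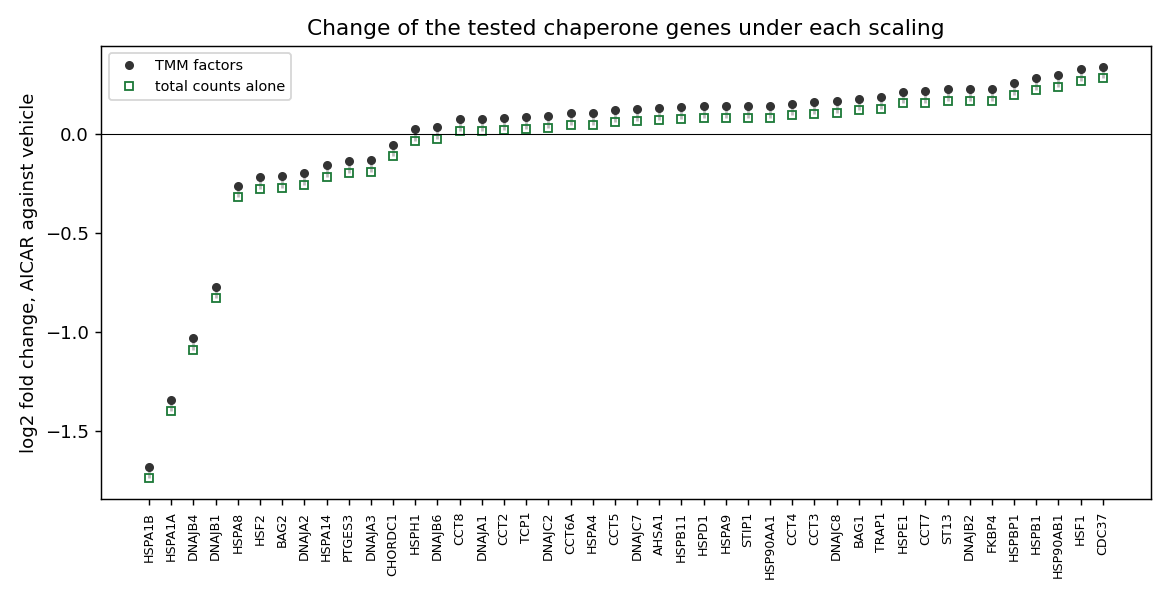
Log2 fold change of the 44 tested chaperone genes with TMM factors (filled) and with libraries scaled by total counts alone (open squares), ordered by the former. The shift is about the same for every gene, and HSPH1 and DNAJB6 are the genes whose sign changes.

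The number of small rises that passed differed with the scaling, as it did with other settings. With total counts alone the median log2 fold change of all genes was -0.06, the chaperone genes counted 9 higher and 11 lower, and 10.2% of all genes were higher and 23% lower. The 9 were HSP90AB1, TRAP1, HSPB1, HSPE1, HSPBP1, ST13, CDC37, HSF1 and CCT7, and these were also the 9 of 23 rises kept in every alternative that gave a value. Of the 11 falls 5 were kept in that way, those of HSPA1B, HSPA8, DNAJB1, DNAJB4 and DNAJA2. Without AICAR replicate 2 the rises numbered 13 and the falls 8. A fit without 1 library leaves a group of 1, whose spread is assumed to be that of the other group, so calls lost there also reflect fewer libraries.

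Ratios within a library do not depend on the scaling. The FPKM of HSPA1A and HSPA1B together, relative to that of HSPA8, was 0.00837 and 0.00829 in the vehicle libraries and 0.00308 and 0.00347 in the AICAR libraries. DNAJB1 stood to DNAJA1 at 0.243 and 0.249 with vehicle and 0.134 and 0.137 with AICAR. In both ratios the AICAR libraries lay far below the vehicle libraries, by -1.35 and -0.86 on the log2 scale. The inducible HSP90AA1 stood to HSP90AB1 at 0.442 and 0.454 with vehicle and 0.412 and 0.389 with AICAR, a log2 difference of -0.16.

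For HSPE1 to HSPD1 the ratio was 0.755 and 0.781 against 0.798 and 0.87, and for HSPH1 to HSPA4 it was 0.345 and 0.348 against 0.358 and 0.366. The log2 difference of the last ratio, 0.06, became -0.08 with CPM in place of FPKM, so its direction is not settled. For each of the 5 ratios the exact two-sided permutation test gave p = 0.333, the smallest that 2 against 2 libraries allow, so none could pass a threshold, with or without adjustment over the 5.

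**Figure D5:**
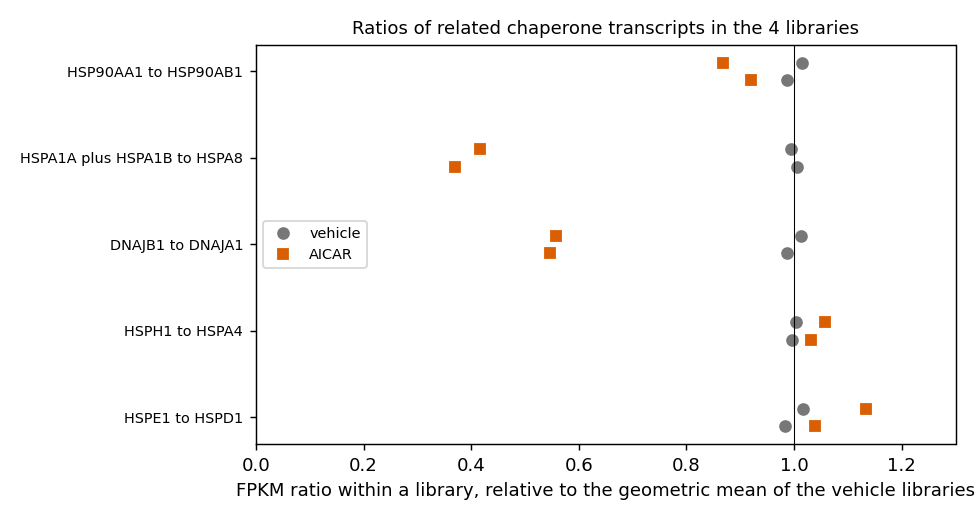
Ratios of FPKM between related chaperone transcripts in each library, relative to the geometric mean of the vehicle libraries (vehicle as grey circles, AICAR as orange squares). The AICAR libraries lie near 0.4 for HSPA1A plus HSPA1B to HSPA8 and near 0.55 for DNAJB1 to DNAJA1, and within 0.2 of 1 for the other 3 ratios.

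Genes that textbooks describe as heat-inducible went in both directions. Of 10 such genes (HSPA1A, HSPA1B, HSPH1, HSP90AA1, HSPB1, DNAJB1, BAG3, HSPD1, HSPE1 and CHORDC1) 9 were tested, 3 fell, 4 rose and 2 were not called, 33.3% and 44.4% against 19.7% and 19.4% of all genes. Of the 5 mitochondrial chaperone genes 4 rose (HSPA9, TRAP1, HSPD1 and HSPE1) and DNAJA3 fell, at log2 fold changes from -0.13 to 0.21. Those are 80% and 20%, against 19.4% and 19.7% of all genes. The 4 that rose had means above 100 FPKM, where 68.4% of protein-coding genes were higher. Without AICAR replicate 1 the calls of HSPA9 (adjusted p = 0.0685), HSPD1 (0.226) and DNAJA3 (0.0689) were lost and those of TRAP1 and HSPE1 were kept. Both sets were drawn up with results of these libraries already known, and their counts are descriptions.

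A list of 87 further chaperone genes gave 74 that were tested, of which 20 rose and 11 fell. Those are 27% and 14.9%, near the 19.4% and 19.7% of all genes. Rises were led by BAG6, a holdase for proteins bound for membranes, at 31%, FKBP8, an immunophilin of the mitochondrial surface, at 30.7%, and NUDC, an HSP90 cochaperone, at 26.7%. After HSPA6 the largest falls were those of DNAJC27, at 70 and 71 counts with vehicle against 25 and 18, and of CDC37L1, a relative of CDC37, which fell 2.11-fold from 9.12 and 9.60 to 4.04 and 4.82 CPM. CDC37 and CDC37L1 thus moved in opposite directions. Of 16 genes of prefoldin, which hands substrates to TRiC, and of other chaperonin partners 6 rose and 2 fell, 37.5% and 12.5%. Of 16 tested mitochondrial chaperone and protease genes 5 rose and none fell, 31.2% and 0%. Of 19 other J-proteins 0 rose and 3 fell, 0% and 15.8%. Of 4 other HSP70 and small heat shock genes 0 rose and 2 fell, 0% and 50%. Of 19 other cochaperones and heat shock regulators 9 rose and 4 fell, 47.4% and 21.1%. The shares of all genes to set beside each are 19.4% and 19.7%, and the lists are small.

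In the authors' deposited table, the number of chaperone genes at a q-value under 0.05 is 21 higher and 6 lower, and 20 and 6 of these were called the same way here. Both sets of calls come from the same 4 libraries and are not independent. The share of all genes at that q-value was not counted. DESeq2 run here called 20 chaperone genes higher and 8 lower, against 13.4% and 13.1% of all genes. The authors' deposited table gives HSPA1B a log2 fold change of -1.43 and HSPA8 -0.25, and HSPA1A, at -0.41, has a q-value of 0.0818 there. DESeq2 run here gave HSPA1A -1.35 (adjusted p = 0.0431). The sources used here do not say how the authors' fold changes were estimated, so their sizes may not be comparable with those here.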

How the data were processed

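Total RNA of NALM6 cells was sequenced in 4 libraries, as single reads of 75 bases from a stranded kit, per the labels' protocols. Tools listed without roles in the notes of the submitters on processing are RSEM 1.2.31, STAR 2.5.3a, Trimmomatic 0.32 and DESeq2, with the build hg19. No source used here names the gene annotation. Per gene and library, the authors deposited expected counts (estimated, not normalized) and FPKM (already divided by length and depth by the authors), and their own log2 fold changes with q-values, quoted only where named.

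Expected counts were rounded. Genes passing edgeR's filterByExpr (minimum count 10, minimum total 15) were scaled with TMM factors and compared by the quasi-likelihood test of edgeR 4.0.16 in R 4.3.3 (two-sided), adjusted by Benjamini-Hochberg over all 13626 genes tested, at a threshold of 0.05. FPKM served for levels between genes and for 5 ratios, tested by exact permutation. The procedure was tested on simulated data with a common spread for all genes and planted changes larger than most of those reported here. That test does not cover the small changes. Depth was 32318376 to 36769116 counts. Replicates differed by more than sampling noise (chi-square per gene 8.355 for vehicle, 2.957 for AICAR), so each counted as a library. The common biological coefficient of variation was 3.63%.

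The members, classes and lists were chosen with earlier results of these data known. Values of every library are given for genes called with a log2 fold change of at least 0.5 in size, for the most abundant gene of each class and for genes of the ratios, and for further genes chosen after their values were seen, such as TRAP1, HSPA9, CDC37, HSF2, BAG2 and CCT7. Of the further chaperone genes, the 3 highest and 3 lowest called are named. Promoters came from RefSeq (GRCh38.p14), with windows from 250 bases before to 50 after a start, and were used for 39 members. Members on chromosome 8, where HSF1 lies, were left out of the promoter counts, while the set of all genes was not restricted by chromosome. Shared windows, overlaps and lengths came from GENCODE 29 (GRCh38), matched for 97.2% of tested protein-coding genes. Alternatives were RLE, upper-quartile and total-count scaling, no filter or at least 10 CPM, limma-voom (limma 3.58.1), DESeq2 1.42.0, a replicate block, protein-coding genes alone, a threshold of 0.01 and leaving out each library.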

Additional observations from a re-analysis of the deposited data

How the results depend on the processing

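Scaling by total counts alone left 9 genes higher in place of 23, and with an adjusted p under 0.01 13 were higher and 7 lower. Leaving out each library in turn gave 13 to 23 higher and 8 to 10 lower. Calls across all genes, higher and lower, were also fewer in each of those fits. With no low-count filter 7 chaperone genes were lower in place of 11. Calls fell across all genes at that setting too, to 8.79% higher and 9.63% lower from 19.4% and 19.7%. In numbers, 1817 genes were higher and 1991 lower, against 2645 and 2683 with the filter. The drop was thus not particular to the chaperone genes. The cause of these differences was not tested beyond the fewer calls that a stricter threshold or fewer libraries give. With the replicate block 23 were higher and 11 lower, as without it. HSPB11 lost its call and CCT6A gained one (log2 fold change 0.10, adjusted p = 0.0282). Deviations of libraries with the same number had a correlation of -0.0497 across genes, so the numbers were not treated as pairs.

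Signs changed for 3 genes that were not called. HSPH1 went to -0.035 with total counts alone and -0.016 with at least 10 CPM required, DNAJB6 to -0.025 and -0.0064. Leaving out libraries gave -0.037 to 0.097 for DNAJB6 and -0.12 to 0.0068 for CHORDC1. The ratio of HSPH1 to HSPA4 went to -0.082 with CPM (log2 difference). With 2 libraries a group, rises near 10% lie close to the threshold, and HSPA1A rests on 15 to 54 counts a library.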
